A study of Arabidopsis thaliana with 24 samples.

Results

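Gene expression in *rve8-1* was set against that in the wild type Columbia (Col) in late subjective night, at circadian time 20 (CT20). This harvest came 4 h before the hour taken as the next subjective dawn. The CT label counts hours in constant light in the same way for both genotypes. It is no measure of the phase that the clock of either genotype had reached. The comparison rests on the arrays of *rve8-1* at 92 and 116 h in constant light and those of Col at the same hours, 4 of the 24 arrays of the time course, chosen by their labels and by no measured value. *rve8-1* carries a T-DNA insertion in *REVEILLE 8* (*RVE8*, At3g09600), and this allele alone stands for the loss of the gene. Seedlings of both genotypes grew for 7 days in 12 h light and 12 h dark on medium with sucrose, were moved to constant light, and were harvested whole, about 50 plants to a sample, every 4 h from 72 h onward. Each harvest of a genotype gave 1 array, so the array of day 5 of free run was taken as the replicate of the array 24 h before it. P-values measure only the spread between such arrays, estimated over all 12 groups of genotype and hour. Any shift of phase between the days is part of this spread.

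The plant clock is a set of transcription factors that repress or activate one another in turn. *CCA1*, *LHY* and related MYB factors are made around dawn and repress genes of the evening, while the PSEUDO-RESPONSE REGULATOR (PRR) proteins, *TOC1* among them, follow in sequence through day and evening and repress the dawn genes. RVE8 is a MYB protein of the same family that activates evening genes through the evening element in their promoters, together with LNK coactivators, and its loss lengthens the free-running period. CT20 falls where dawn genes of the wild type climb and evening genes decline, so levels at this hour change steeply from one harvest to the next.

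The values are log2 expression levels, and a difference of 1 is a doubling. Genes above a level of 4.5 on at least 4 of the 12 arrays of either genotype were kept, 19473 of 30237. The 25th percentile of all levels lay at 3.76 and 4.06 on the *rve8-1* arrays and at 4.03 and 3.91 on the Col arrays, within the range of 3.76 to 4.17 over all 24, so levels near 4 are near the array's floor, and a difference from such a level only bounds the change. The arrays of *rve8-1* at CT20 differed from each other by more than those of Col, with a median standard deviation over genes of 0.142 against 0.0983. Markers of green tissue lay between 12.1 and 13.9 in *rve8-1* and between 12.2 and 13.8 in Col. Root markers spanned 4.09 to 11.5 in *rve8-1* and 4.11 to 11.6 in Col, and none of the root, seed or flower markers kept was called. In whole seedlings, fewer cells of a type and less RNA per cell cannot be told apart. The 8 reference genes, such as *ACT2* and *UBQ10*, differed by -0.11 to 0.25, and none was called.

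At CT20, 69 of 19473 genes (0.354%) passed limma's moderated test at a p under 0.05 after Benjamini-Hochberg adjustment, and are spoken of as called, 17 higher in *rve8-1* (0.0873%) and 52 lower (0.267%). Genes that fell were the dawn MYB genes *CCA1* and *RVE1*, all 4 *LNK* genes, genes of B-box proteins and genes of the light-harvesting antenna. Genes that rose were the evening regulators *TOC1*, *PRR3*, *PRR5* and *FKF1* and genes such as *JMJD5* and *CCL*. The median fall was 1.11 in size on the log2 scale (a difference of -1.11, quartiles -1.59 and -0.93) and the median rise 0.95 (quartiles 0.87 and 1.24), against a median difference of 0.0039 (quartiles -0.15 and 0.15) over all genes. At an unadjusted p under 0.05, 898 genes were higher (4.61%) and 972 lower (4.99%). In each of the 69 genes, both *rve8-1* arrays lay beyond both Col arrays, which was also so for 22.2% of all genes upward and 18.7% downward. With 2 arrays to a group many calls were narrow. Since the arrays of these 69 genes do not overlap, leaving 1 of the 4 out could not reverse a direction. Without the *rve8-1* array at 92 h, 28 of the 69 were still called, without that at 116 h 13, without the Col array at 92 h 31 and without that at 116 h 11, with every gene keeping its direction. The 11 genes called whichever of the 4 arrays was left out were *RVE8*, *MRD1*, At5g11330, *BBX28*, *LHCB2.3*, *LHCB1.4*, *RUP2*, *SCPL10*, At1g13650 and At5g66740, which were lower, and *JMJD5*, which was higher.

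*RVE8* itself, the gene that carries the insertion, stood at 3.74 and 3.86 in *rve8-1*, against 7.16 and 7.34 in Col. The *rve8-1* arrays lay at the floor, so the measured difference of -3.45 ± 0.22 (SE, adjusted p = 5.19e-07) is a bound on the fall and no fold is given. The *RVE8* value checks the labels, since it was low on both arrays labelled *rve8-1* and high on both labelled Col. *MRD1* (At1g53480), a gene named for its lower level in a methionine-accumulating mutant, was at 3.96 and 4.08 in *rve8-1* and at 8.72 and 8.59 in Col, a difference of -4.63 ± 0.21 (adjusted p = 7.45e-09). Its *rve8-1* arrays were also near the floor, so the sizes of these differences have no order. At5g11330, annotated as a monooxygenase family protein, was at 6.13 and 6.46 in *rve8-1* and at 7.77 and 7.92 in Col, so its level in the mutant was lower but well above the floor (-1.55 ± 0.13, adjusted p = 2.71e-05). At3g09580, separated from *RVE8* on the chromosome by At3g09590, was at 7.73 and 7.74 in *rve8-1*, against 6.81 and 7.00 in Col, a rise of 0.83 ± 0.14 (adjusted p = 0.0137) that was lost when any array was left out (adjusted p 0.0670 to 0.175). At3g09590 itself was at 4.48 and 4.52 in *rve8-1* and at 3.41 and 3.87 in Col and was not called (0.86 ± 0.24, adjusted p = 0.195). *QQS*, a gene tied to starch content, was at 5.51 and 4.82 in *rve8-1* and at 6.34 and 6.74 in Col, again not called (adjusted p = 0.189).

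Among the 10 MYB genes of the *CCA1* and *REVEILLE* family, *RVE8*, *CCA1* and *RVE1* fell (against 0.267% of all genes), 7 were not called, and the median difference was -1.07. *CCA1*, the dawn repressor of the evening genes, was at 5.55 and 5.50 in *rve8-1*, against 7.00 and 7.31 in Col (-1.64 ± 0.29, adjusted p = 0.0188, 3.11-fold). *RVE1*, which links the clock to auxin and growth, was at 6.43 and 6.33 in *rve8-1* and at 7.64 and 7.63 in Col (-1.26 ± 0.21, adjusted p = 0.0137). The levels of both genes were lower on each *rve8-1* array than on either Col array. The same was so for all 52 genes called lower and for 18.7% of all genes. *LHY*, the close homolog of *CCA1* and named here after its values were seen, was at 6.60 and 5.87 in *rve8-1* and at 7.63 and 7.82 in Col. Its difference of -1.49 ± 0.36 was nearly that of *CCA1*, but its *rve8-1* arrays lay further apart and it was not called (adjusted p = 0.113). *ASG4*, another gene of the family, gave -1.34 ± 0.34 (adjusted p = 0.138), *RVE7* -0.89 and *RVE4*, the nearest relative of *RVE8*, -0.47. *RVE2* had the only positive difference, 0.43 ± 0.21 (adjusted p = 0.537). The calls of *CCA1* and *RVE1* were lost when any array was left out, with an adjusted p for *CCA1* of 0.0781 without *rve8-1* at 92 h, 0.177 without *rve8-1* at 116 h, 0.0938 without Col at 92 h and 0.317 without Col at 116 h, and for *RVE1* of 0.0599 to 0.229.

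The products of the 4 *LNK* genes lack a DNA-binding domain and act as coactivators with the RVE proteins. All 4 genes fell (against 0.267% of all genes), with a median difference of -2.03. *LNK3* was at 5.06 and 5.34 in *rve8-1* and at 7.17 and 7.84 in Col (-2.30 ± 0.37, adjusted p = 0.0110, 4.94-fold). *LNK4* was at 4.99 and 5.50 in *rve8-1* and at 7.07 and 7.70 in Col (-2.14 ± 0.35, adjusted p = 0.0115). These were the largest measured falls after *MRD1* and *RVE8*. Falls to near the floor, as in *CIPK20* and *BBX28*, are bounds and cannot be ranked against them. *LNK2* was at 5.19 and 5.43 in *rve8-1* and at 7.02 and 7.46 in Col (-1.93 ± 0.29, adjusted p = 0.00853). *LNK1* was at 4.72 and 5.04 in *rve8-1* and at 5.96 and 6.57 in Col (-1.38 ± 0.23, adjusted p = 0.0126). In all 4 genes the array at 116 h was the higher of the pair in either genotype. The 4 calls held without the Col array at 92 h (adjusted p 0.0161 to 0.0275) and were lost when any other array was left out (highest adjusted p 0.314, without Col at 116 h).

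Of the 5 *PRR* genes, *TOC1*, *PRR3* and *PRR5* rose (against 0.0873% of all genes), *PRR7* and *PRR9* were not called, and the median difference was 0.89. *PRR3*, whose product protects TOC1 from degradation, was at 6.09 and 6.02 in *rve8-1*, against 4.72 and 4.91 in Col (1.24 ± 0.20, adjusted p = 0.0110). *TOC1*, the evening repressor of *CCA1*, was at 6.58 and 6.39 in *rve8-1* and at 5.58 and 5.47 in Col (0.96 ± 0.19, adjusted p = 0.0481). *PRR5* was at 5.39 and 5.38 in *rve8-1* and at 4.49 and 4.5 in Col (0.89 ± 0.18, adjusted p = 0.0497). The morning members *PRR9* and *PRR7* were at or below 4.24 on all 4 arrays. Of 9 further clock genes, evening genes and others such as *ZTL* and *LKP2*, only *FKF1*, a blue-light receptor of the photoperiod pathway, was called. It was at 4.94 and 5.06 in *rve8-1* and at 4.16 and 4.12 in Col (0.86 ± 0.17, adjusted p = 0.0461). *ELF3* (0.65 ± 0.17, adjusted p = 0.138), *LUX* (0.48 ± 0.17, adjusted p = 0.357) and *ELF4* (0.42 ± 0.26, adjusted p = 0.634), which together form the evening complex, were not called, and the median over the 9 was 0.35. *GI* was at 4.11 and 4.75 in *rve8-1* and at 4.32 and 4.22 in Col (adjusted p = 0.838). The 4 rises were each lost when any array was left out, with adjusted p values from 0.0623 to 0.424.

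**Figure D1:**
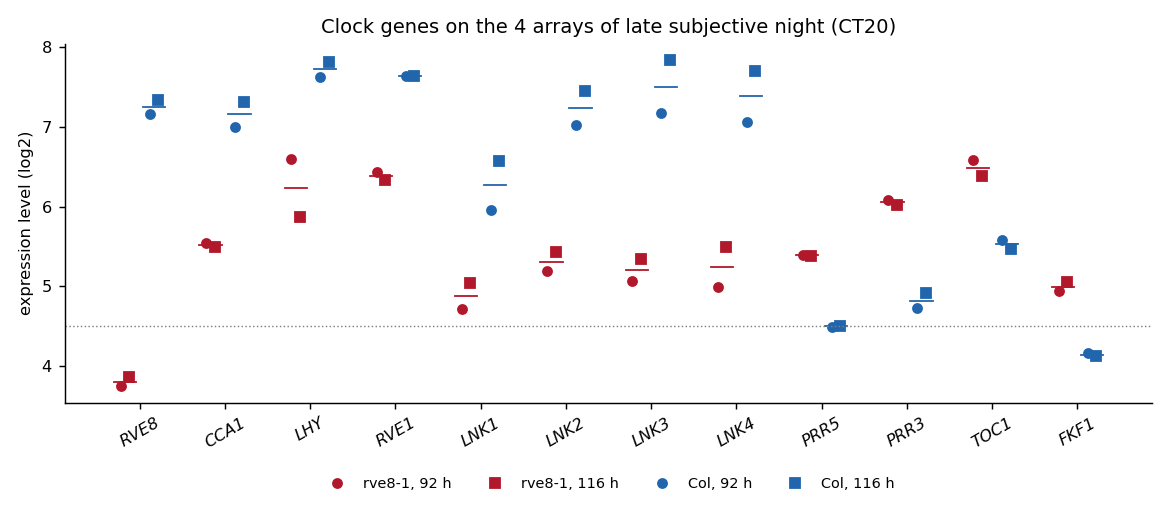
Expression levels (log2, vertical axis) of 12 clock genes on each array at CT20, with *rve8-1* in red left of Col in blue, circles for 92 h, squares for 116 h and short lines for means. The dotted line is the level of 4.5 used to keep genes. In the 8 genes from *RVE8* to *LNK4* both *rve8-1* arrays sit below both Col arrays, as in 18.7% of all genes. In the 4 from *PRR5* to *FKF1* both sit above them, as in 22.2% of all genes. All but *LHY* were called, and every called gene is separated in this way.

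B-box (BBX) proteins are zinc finger factors that act in light signaling and flowering, and *CONSTANS* (*CO*) belongs to them. This family was picked after its values were seen. Of 31 genes that the reference names as members, 28 were kept, of which 8 fell, 1 rose and 19 were not called, against 0.267% of all genes lower and 0.0873% higher, with a median difference of -0.41. *BBX28* was at 3.65 and 4.31 in *rve8-1* and at 5.81 and 6.09 in Col (-1.97 ± 0.24, adjusted p = 0.000987), and it was the only member whose call held whichever array was left out (highest adjusted p 0.0475, without Col at 116 h). *COL2*, a close homolog of *CO*, was at 6.77 and 6.74 in *rve8-1* and at 8.56 and 8.82 in Col (-1.94 ± 0.27, adjusted p = 0.00318). *COL2* stood about 2 log2 units lower in the mutant. The *rve8-1* arrays of *BBX28* were near the floor, so its difference is a bound on the fall. *BBX16* (-1.80), *BBX32* (-1.38), *BBX18* (-1.20), *BBX25* (-1.06), *BBX19* (-1.02) and *BBX24* (-0.96) were the other falls, with adjusted p values from 0.00220 for *BBX32* to 0.0368 for *BBX19*. *BBX24*, also known as STO, and *BBX25* are repressors of light responses in seedlings. *BBX8* alone rose, at 7.00 and 7.02 in *rve8-1* and at 6.11 and 5.95 in Col (0.98 ± 0.20, adjusted p = 0.0473). *COL9* was next among the positive differences, at 7.19 and 6.87 in *rve8-1* and 6.11 on both Col arrays (0.92 ± 0.25), and was not called (adjusted p = 0.172). *CO* itself was at 5.36 and 4.64 in *rve8-1* and at 4.54 and 4.58 in Col (adjusted p = 0.571). Of the 8 falls, 6 were still called without *rve8-1* at 92 h, 2 without *rve8-1* at 116 h, 6 without Col at 92 h and 1 without Col at 116 h, while *BBX8* was lost in each case (adjusted p 0.117 to 0.436).

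Genes of the light-harvesting complexes, which bind chlorophyll around the photosystems, were expressed near the top of the range. In the list of 14 genes, 11 were kept, of which *LHCB3*, *LHCA1* and *LHCB4.2* fell, against 0.267% of all genes, and the median difference was -0.43. *LHCB3* was at 12.11 and 12.19 in *rve8-1* and at 12.76 and 12.87 in Col (-0.66 ± 0.12, adjusted p = 0.0188). *LHCA1* was at 12.17 and 12.23 in *rve8-1* and at 12.76 and 12.85 in Col (-0.60 ± 0.10, adjusted p = 0.0126). *LHCB4.2* was at 12.02 and 12.01 in *rve8-1* and at 12.55 and 12.62 in Col (-0.57 ± 0.11, adjusted p = 0.0279). In these genes, which were picked for their calls, the arrays of a genotype lay closer to each other than to those of the other genotype. When all 15 genes the reference names as members were taken, a choice made after the values were seen, 5 fell. The further genes were *LHCB2.3*, at 10.78 and 10.66 in *rve8-1* and at 12.06 and 12.30 in Col (-1.46 ± 0.17, adjusted p = 0.000851), and *LHCB1.4*, at 11.26 and 10.91 in *rve8-1* and 12.14 on both Col arrays (-1.06 ± 0.13, adjusted p = 0.000987). *LHCB2.1*, almost the same in sequence as other *LHCB2* copies, was at 10.49 and 10.48 in *rve8-1* and 11.42 on both Col arrays and just missed the threshold (-0.94 ± 0.20, adjusted p = 0.0543). Probes may be shared between such copies, so the value of any one of them is uncertain.

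Of 10 genes of chlorophyll synthesis, *HEMA1* and *CAO* fell (against 0.267% of all genes) and 8 were not called, with a median difference of -0.26. *HEMA1*, the glutamyl-tRNA reductase at the entry of the pathway, was at 8.79 and 8.49 in *rve8-1* and at 9.87 and 9.83 in Col (-1.21 ± 0.24, adjusted p = 0.0373). *CAO*, which makes chlorophyll b, was at 6.99 and 6.72 in *rve8-1* and at 7.83 and 8.11 in Col (-1.11 ± 0.18, adjusted p = 0.0110). In these genes, again picked for their calls, the differences were larger than the spread between the arrays of a genotype. *GUN5*, a subunit of magnesium chelatase, gave -0.84 ± 0.20 and was not called (adjusted p = 0.107), and *PORB* had the only positive difference (0.13 ± 0.16, adjusted p = 0.843). *GNC* (GATA21), a factor that promotes greening, was at 7.31 and 7.21 in *rve8-1* and at 7.21 and 7.16 in Col (adjusted p = 0.915). Of the 7 falls in the antenna and chlorophyll genes, 3 were called without *rve8-1* at 92 h, 2 without *rve8-1* at 116 h, 3 without Col at 92 h and 2 without Col at 116 h. *LHCB2.3* (adjusted p 0.00524 to 0.0367) and *LHCB1.4* (0.000933 to 0.0312) held throughout.

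Other genes that fell act in light signaling, flowering and metabolism. *PIF5*, a phytochrome-interacting factor that promotes elongation, was at 5.91 and 6.08 in *rve8-1* and at 7.10 and 7.41 in Col (-1.26 ± 0.20, adjusted p = 0.00992). Of 10 *PIF* and growth genes it was the only 1 called, against 0.354% of all genes. *PIF4* was at 4.36 and 5.28 in *rve8-1* and at 5.19 and 5.96 in Col (-0.76, adjusted p = 0.385), while *PIF7* (-0.30, adjusted p = 0.618) and *IAA29* (0.80, adjusted p = 0.331) did not pass either. The median over the 10 was 0.066. *RUP2*, a repressor of UV-B signaling, was at 6.15 and 6.12 in *rve8-1* and at 7.02 and 7.10 in Col (-0.93 ± 0.10, adjusted p = 0.000611), with close agreement of the arrays in either genotype. *AFR*, an F-box protein of far-red signaling (-1.11), and *RPT2*, which acts in phototropism (-0.93), were lower as well. With single arrays left out *RUP2* kept its call (adjusted p 0.00468 to 0.0236), *PIF5* kept it only without Col at 92 h (0.0281, otherwise 0.0623 to 0.231), and *AFR* and *RPT2* lost it in each case (highest adjusted p 0.125 and 0.439).

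Among 10 flowering genes kept of 11, *COL2* and *CDF3* fell (against 0.267% of all genes) and 8 were not called, with a median difference of -0.70. *CDF3*, a DOF factor of the family that represses *CO*, was at 5.44 and 5.67 in *rve8-1* and at 6.35 and 6.81 in Col (-1.02 ± 0.18, adjusted p = 0.0210, and 0.0259 to 0.420 without single arrays, with the call held only without Col at 92 h). *CDF1* was at 6.06 and 6.02 in *rve8-1* and at 7.02 and 7.54 in Col, which just missed the threshold (-1.24 ± 0.26, adjusted p = 0.0543). The florigen gene *FT* was at 4.29 and 4.34 in *rve8-1* and at 4.99 and 5.17 in Col and was not called (-0.77 ± 0.21, adjusted p = 0.173). In *CDF1* and *FT* both *rve8-1* arrays were below both Col arrays, as in 18.7% of all genes.

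Of the remaining falls, *CIPK20*, a protein kinase gene, was at 3.34 and 3.64 in *rve8-1* and at 5.03 and 6.06 in Col (-2.05 ± 0.34, adjusted p = 0.0126). Its Col arrays differed by more than 1 log2 unit, and the call held only without Col at 92 h (adjusted p 0.00875, otherwise 0.0806 to 0.314). *BCH2*, a carotenoid hydroxylase, was at 6.75 and 6.24 in *rve8-1* and at 8.23 and 8.49 in Col (-1.86 ± 0.29, adjusted p = 0.00953). *SCPL10*, a serine carboxypeptidase-like protein, was at 6.86 and 6.41 in *rve8-1* and at 8.01 and 7.95 in Col (-1.35 ± 0.15, adjusted p = 0.000719). *SCPL10* kept its call whichever array was left out (highest adjusted p 0.0187), and *BCH2* lost it without *rve8-1* at 116 h (0.144) and Col at 116 h (0.216). Smaller falls were those of *CYP71B2* (-1.11), the thylakoid phosphate transporter *PHT4;1* (-1.03), the glutathione transferase *ERD9* (-0.88), the amino acid transporter *ANT1* (-0.87), the inositol phosphate synthase *MIPS2* (-0.78), the remorin *REM4.2* (-0.73) and *GH3.9* (-0.56), of a family that conjugates auxin. Besides At5g11330, 13 loci without a symbol in the reference fell, led by At1g66100 (8.24 and 8.59 in *rve8-1*, 9.86 and 10.41 in Col, -1.72 ± 0.23, adjusted p = 0.00276), At4g27360 (-1.62), At1g13650 (-1.58) and At1g55960 (-1.53).

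The largest rise was that of At1g07050, a locus without a symbol, at 7.46 and 8.15 in *rve8-1* and at 4.72 and 4.81 in Col (3.04 ± 0.52, adjusted p = 0.0141, 8.21-fold). *DJC76* (At5g23240), a J-domain protein, was at 7.59 and 7.63 in *rve8-1* and at 5.46 and 5.23 in Col (2.26 ± 0.38, adjusted p = 0.0126). *JMJD5*, a jumonji-domain protein that acts in the plant clock, was at 7.56 and 7.94 in *rve8-1* and at 5.77 and 5.89 in Col (1.92 ± 0.21, adjusted p = 0.000458). *JMJD5* was the only rise called whichever array was left out (highest adjusted p 0.0153), while At1g07050 kept its call only without *rve8-1* at 92 h (0.0445, otherwise 0.124 to 0.229) and *DJC76* in no case (0.0623 to 0.245). *CCL*, a clock output gene whose transcript is short-lived, was at 10.94 and 11.28 in *rve8-1* and at 9.62 and 9.72 in Col (1.44 ± 0.26, adjusted p = 0.0188, and 0.0460 to 0.232 without single arrays). The pseudogene At1g24938 was at 4.97 and 5.31 in *rve8-1* and at 3.82 and 3.99 in Col (1.24 ± 0.21, adjusted p = 0.0138). *ALDH5F1*, a succinic semialdehyde dehydrogenase, rose by 0.67, and At1g17665, At5g35740, At1g21680 and At1g53450 by 0.63 to 0.95.

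Of 15 genes of starch breakdown, a process of the night, 1 rose (against 0.0873% of all genes) and 14 were not called. Differences were positive in 13 of the 15, against 9883 of all 19473 genes, and the median was 0.43. Both *rve8-1* arrays lay above both Col arrays in 9 of the 15 and below them in 1, against 22.2% and 18.7% of all genes. In *BAM5* (7.74 and 4.90 in *rve8-1*, 5.58 and 5.25 in Col) and *LSF1* (6.27 and 5.93, against 6.01 and 6.10) only the *rve8-1* array at 92 h lay above Col. *PHS2*, the cytosolic glucan phosphorylase, was at 7.63 and 7.18 in *rve8-1* and at 6.57 and 6.46 in Col (0.89 ± 0.17, adjusted p = 0.0373, and 0.0543 to 0.416 without single arrays). The debranching enzyme gene *ISA3* was at 6.71 and 6.36 in *rve8-1* and at 5.70 and 5.53 in Col (0.92 ± 0.20, adjusted p = 0.0636). *AMY3* (0.55 ± 0.12, adjusted p = 0.0630) and *DPE1* (0.75 ± 0.16, adjusted p = 0.0679) lay equally close to the threshold. *BAM9* was on the other side, at 6.88 and 6.70 in *rve8-1* and at 7.42 and 7.48 in Col (-0.66, adjusted p = 0.126).

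None of 11 cold-response genes, of 8 features of glycine-rich protein and catalase genes, or of 16 phenylpropanoid genes was called, against 0.354% of all genes. *COR27*, a cold-induced regulator of the clock, was at 6.84 and 7.23 in *rve8-1* and at 5.21 and 5.22 in Col, a difference of 1.82 ± 0.40 (adjusted p = 0.0703). At4g33980 followed at 5.43 and 5.52 in *rve8-1* and at 4.31 and 4.17 in Col (1.23 ± 0.26, adjusted p = 0.0578). The *rve8-1* arrays lay above the Col arrays in both genes, as in 22.2% of all genes, and neither passed. *GRP7*, an RNA-binding protein of a slave oscillator, was at 12.20 and 12.46 in *rve8-1* and at 11.72 and 11.57 in Col (0.68 ± 0.15, adjusted p = 0.0602). The median of the phenylpropanoid genes was -0.32. In *DFR* the array of *rve8-1* at 116 h was the lowest of the 4 (9.48 and 8.43 in *rve8-1*, 10.03 and 9.78 in Col, adjusted p = 0.481). It was also the lowest in most other genes of the list, such as *CHS* (10.85 and 10.28 in *rve8-1*, 11.01 and 10.69 in Col). For this list a genotype difference and the error of that array cannot be told apart.

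**Figure D2:**
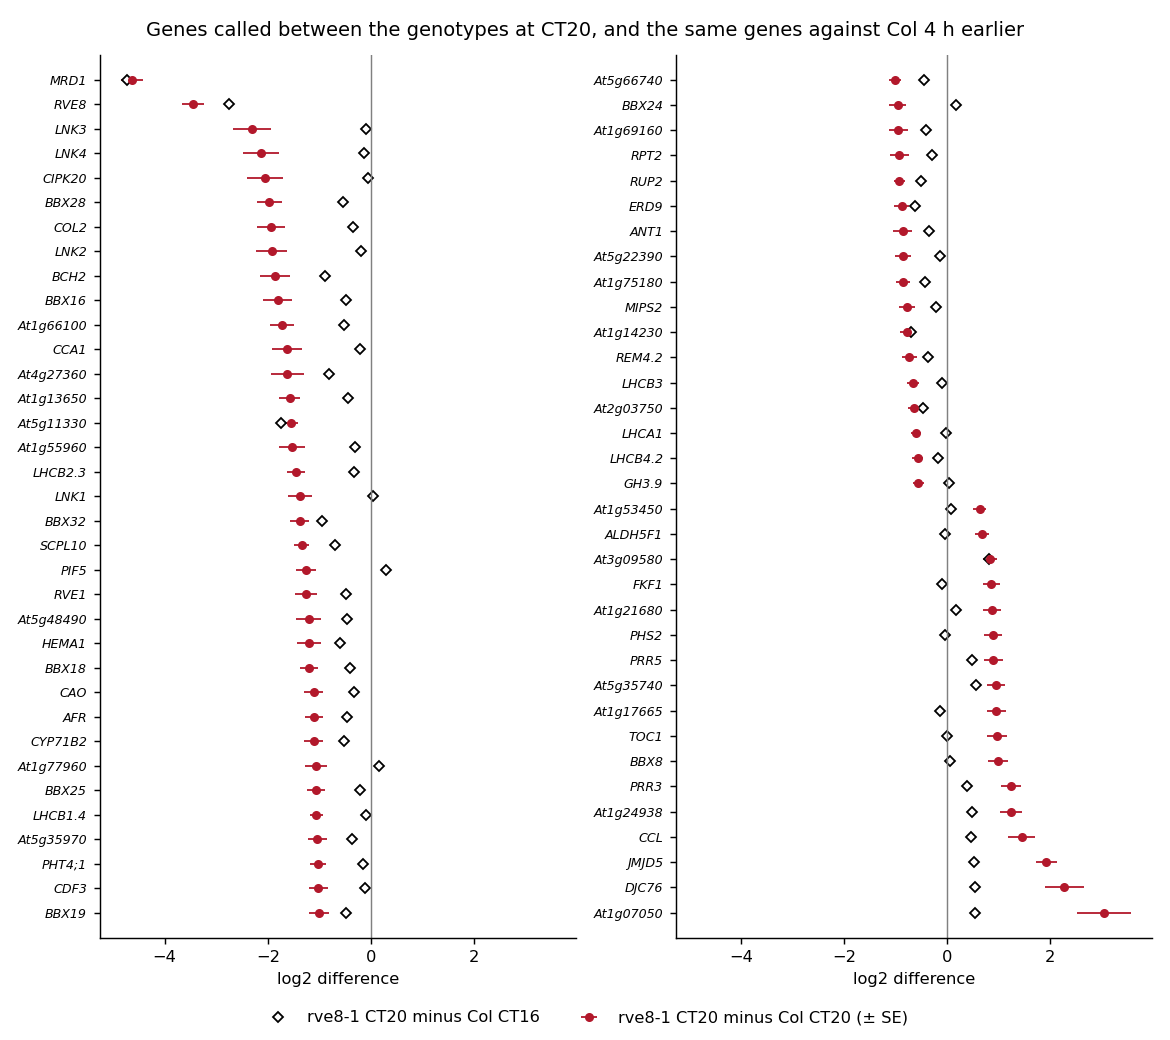
Log2 differences of the 69 genes called at CT20, with red circles and standard errors for *rve8-1* at CT20 minus Col at CT20 and open diamonds for *rve8-1* at CT20 minus Col at CT16. Genes are ordered from *MRD1* (-4.63) to At1g07050 (3.04). Most diamonds lie closer to 0 than the circles, and those of *MRD1*, *RVE8* and At5g11330 were called.

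To see how the *rve8-1* levels at CT20 stood against Col 4 h earlier, the *rve8-1* arrays at CT20 were set against those of Col at CT16. The comparison uses the same *rve8-1* arrays as the first and is not independent of it. At this offset 0 genes were higher and 3 lower (0.0154%) at an adjusted p under 0.05 by limma, and 884 (4.54%) and 1716 (8.81%) at an unadjusted p under 0.05. The 3 were *MRD1* (-4.74 ± 0.21, adjusted p = 5.26e-09), *RVE8* (-2.76 ± 0.22, adjusted p = 8.90e-06) and At5g11330 (-1.74 ± 0.13, adjusted p = 7.47e-06). Without the *rve8-1* array at 92 h the calls numbered 3 higher and 28 lower. Over the 69 genes called at the same hour, the median size of the difference was 1.07 at the same hour and 0.376 at the offset, against 0.149 and 0.180 over all genes. The median at the offset was -0.37 for the 52 genes lower at the same hour and 0.39 for the 17 higher, against -0.048 over all genes. Of the 52, 47 were still negative, and of the 17, 12 were still positive. Over all 19473 genes, 11212 were negative and 8261 positive at the offset. Among those with small differences, *CCA1* differed by -0.21 (adjusted p = 0.760) at the offset, *LNK3* by -0.10 (0.925), *TOC1* by -0.0059 (0.992), *FKF1* by -0.097 (0.818), *LHCA1* by -0.021 (0.948) and *PHS2* by -0.052 (0.919). Larger differences at the offset, none of them called, were those of *BBX32* (-0.96, adjusted p = 0.191), *BCH2* (-0.88, 0.300) and At3g09580 (0.80, 0.116). A p that misses the threshold does not show that the levels were equal.

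The levels at the neighboring hours were read from other arrays of both genotypes. Mean *CCA1* was at 4.43 in *rve8-1* at CT16, 5.52 at CT20 and 7.13 at CT0, and in Col at 5.74, 7.16 and 7.69 at the same hours. In both genotypes it was climbing, with the mutant lower at each of these hours. Mean *LNK3* was at 4.79, 5.20 and 7.80 in *rve8-1* and at 5.30, 7.50 and 8.98 in Col. Mean *TOC1* ran the other way, at 7.31, 6.49 and 5.17 in *rve8-1* and at 6.49, 5.52 and 4.73 in Col. *JMJD5* was at 8.46, 7.75 and 5.76 in *rve8-1* and at 7.22, 5.83 and 5.04 in Col. *MRD1* showed no such course, lying between 3.07 and 4.05 in *rve8-1* and between 8.44 and 8.76 in Col at the time points from CT0 to CT20. Over the genes lower at CT20, means on the arrays outside CT20 were higher at CT0 than at CT16, with both arrays of CT0 above both of CT16, in 47 of 52 in *rve8-1* (90.4%) and 47 of 52 in Col. The same held for 25.8% of all genes in *rve8-1* and 23.2% in Col. Of the genes higher at CT20, 15 of 17 (88.2%) lay lower on both arrays of CT0 than on either of CT16, in *rve8-1* and in Col alike, against 27.7% of all genes in *rve8-1* and 29.9% in Col.

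**Figure D3:**
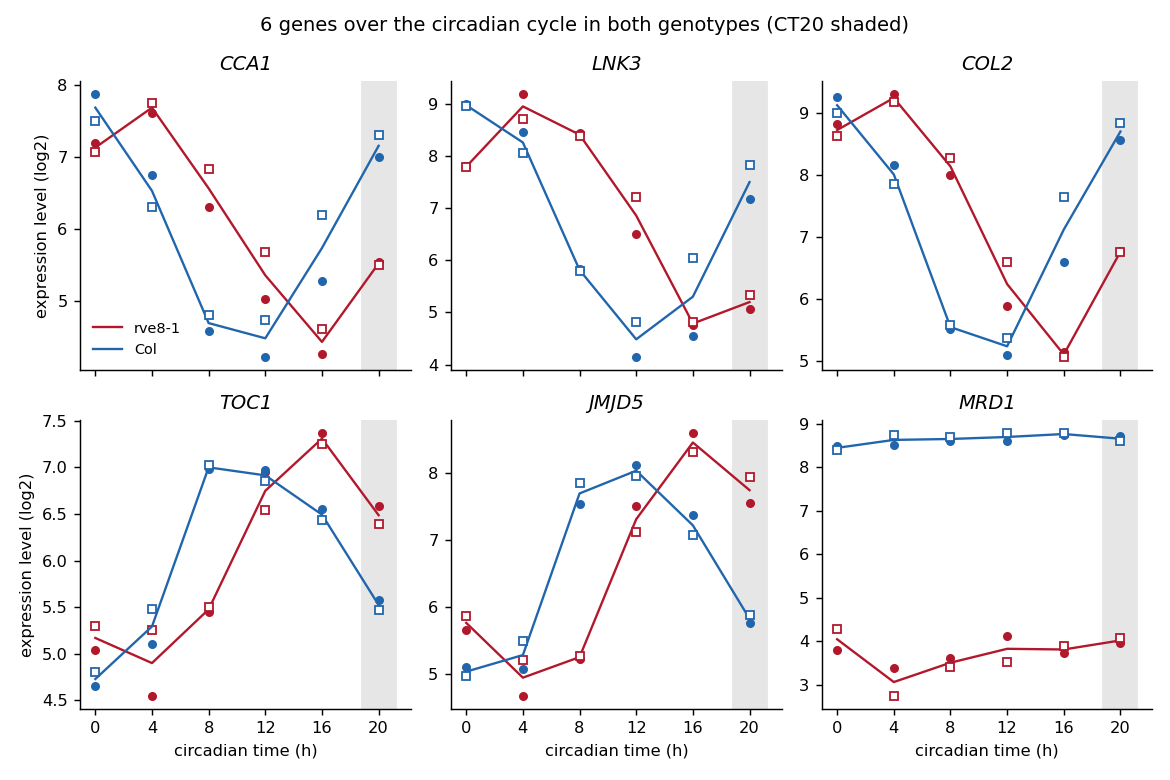
Expression levels (log2, vertical axes) against circadian time in h for 6 genes, *rve8-1* in red and Col in blue, with filled circles for day 4, open squares for day 5 and lines through the means. The shaded band is CT20. *CCA1*, *LNK3* and *COL2* climb there from a lower level in *rve8-1*, *TOC1* and *JMJD5* decline from a higher one, and *MRD1* lies between 3.07 and 4.05 in *rve8-1* and between 8.44 and 8.76 in Col.

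The median genotype difference of these genes changed sign over the day. For the 52 genes lower at CT20, the median of *rve8-1* minus Col was -0.38 at CT0, 0.32 at CT4, 0.93 at CT8, 0.56 at CT12, -0.64 at CT16 and -1.11 at CT20. For the 17 genes higher at CT20 it was 0.44, -0.81, -1.39, 0.013, 0.85 and 0.95 at the same hours. The medians over all genes lay between -0.037 and 0.056 throughout. At CT8, 47 of the 52 genes had a positive difference and 15 of the 17 a negative one. *MRD1*, *RVE8*, At5g11330 and At1g14230 were lower in *rve8-1* at all 6 hours, and At3g09580 was higher at all 6. The values at CT20 chose these genes, and those at the other hours come from other arrays. The CT20 difference was also tested against the mean of the differences at the other 5 hours. That test called 50 genes higher (0.257%) and 82 lower (0.421%), with 733 (3.76%) and 773 (3.97%) at an unadjusted p under 0.05, and 60 of the 69 genes passed it, 46 lower and 14 higher. It shares the CT20 arrays with the first comparison, so that this count is not independent of it. *LNK3* had a difference between hours of -3.10 ± 0.41 (adjusted p = 0.00153), *COL2* of -2.42 ± 0.29 (0.00118), *JMJD5* of 2.23 ± 0.23 (0.000517) and *TOC1* of 1.13 ± 0.21 (0.0205). *MRD1* (0.35, adjusted p = 0.876), At5g11330 (0.057, 0.998), At3g09580 (-0.12, 0.980), *HEMA1* (-0.95, 0.140) and *PRR5* (0.88, 0.0644) did not pass it. Counts with an array left out ran from 5 to 30 higher and from 22 to 87 lower, the smallest without Col at 116 h.

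**Figure D4:**
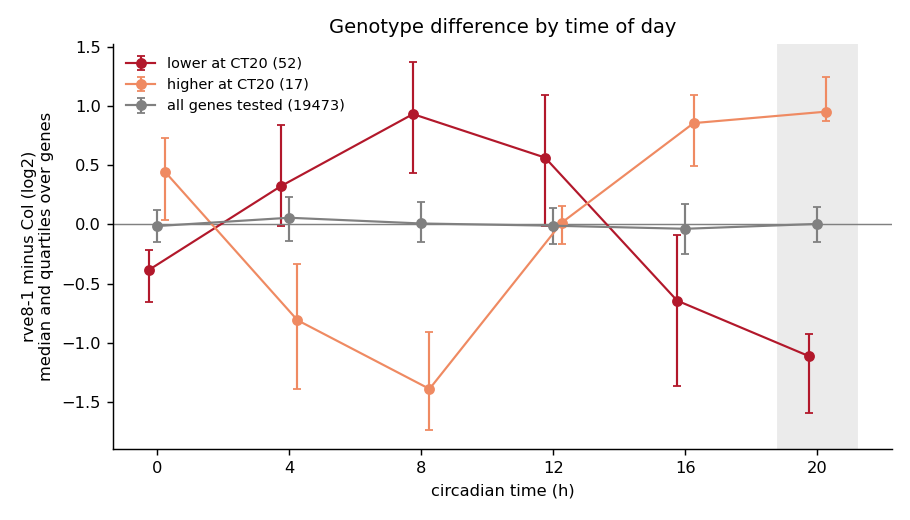
Median and quartiles (bars) of the log2 difference *rve8-1* minus Col against circadian time in h, for the 52 genes lower at CT20 (red), the 17 higher at CT20 (orange) and all 19473 genes (grey). The red medians are 0.93 at CT8 and -1.11 at CT20, the orange ones -1.39 and 0.95, and the grey ones stay near 0.

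When in the day the genes peaked in the wild type was read from a cosine of 24 h fitted to the 10 Col arrays outside CT20. Their levels do not enter the difference at CT20, though their spread enters the fitted error and so the calls. Of the 52 genes lower in *rve8-1*, 28 peaked between CT20 and CT24 and 20 between CT0 and CT4. In all, 92.3% peaked between CT20 and CT8, against 45.0% of all genes. Of the 17 genes higher in *rve8-1*, 14 peaked between CT8 and CT12, and 88.2% between CT8 and CT20, against 55.0% of all genes. Fitted peaks were at 22.8 h for *CCA1*, 22.7 h for *COL2*, 0.571 h for *LNK3*, 2.12 h for *PIF5* and 3.27 h for *LHCA1*, and at 11.4 h for *TOC1*, 9.92 h for At1g07050 and 11.9 h for *JMJD5*. The median fitted amplitude was 1.04 for the genes that fell and 1.22 for those that rose, and 0.168 over all genes. The amplitude was 0.118 for *MRD1*, 0.141 for At3g09580 and 0.184 for At5g11330, and 0.0972 for At1g14230. It was 0.256 for At1g53450, 0.280 for At1g24938 and 0.298 for At5g35740.

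**Figure D5:**
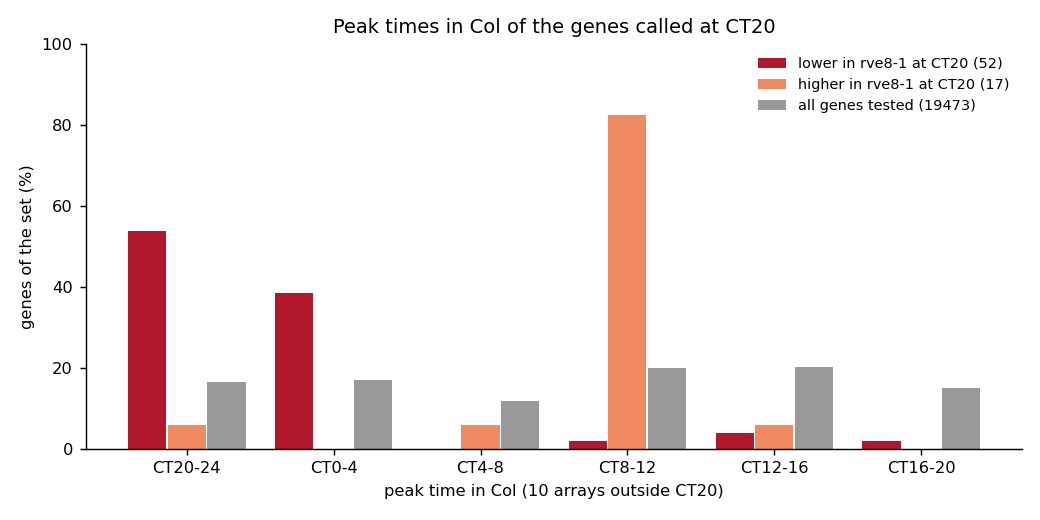
Share of genes (%, vertical axis from 0) by peak time in Col, in bins of 4 h starting at CT20, for genes lower in *rve8-1* at CT20 (red), higher (orange) and all genes tested (grey). The red bars are 53.8% at CT20 to CT24 and 38.5% at CT0 to CT4, and the orange bar is 82.4% at CT8 to CT12.

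The days of free run were also read apart, without a test. The genes lower at CT20 had a median difference of -0.997 at 92 h and -1.30 at 116 h, and 46 of 52 (88.5%) had the larger difference at 116 h, against 51.6% of all genes. For the genes higher at CT20 the medians were 0.99 at 92 h and 0.94 at 116 h, with 7 of 17 larger at 116 h. *BCH2* differed by -1.47 at 92 h and -2.25 at 116 h, *CAO* by -0.83 and -1.40, and *CIPK20* by -1.68 and -2.42. *RVE8* (-3.42 and -3.49) and *MRD1* (-4.75 and -4.51) changed little between the days, and *PRR3* was at 1.36 and 1.11. Each day holds 1 array per genotype, so a change between the days and the error of an array cannot be told apart.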

How the data were processed

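RNA of whole *rve8-1* and Col seedlings was measured on AGRONOMICS1 tiling arrays, 24 in all. Before deposit the authors left out probes of poor performance and ran RMA (background correction, normalization between arrays and a summary per gene of TAIR9) in Aroma.Affymetrix, and they deposited log2 expression levels of 30237 features, of which 0 value columns belonged to other samples. No further scaling was applied. Array precision rests on the spread between arrays and, near a level of 4, on the floor.

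Genotype and hour of day made 12 groups of 2 arrays, after the methods of the study. Genes above 4.5 on at least 4 of 12 arrays of either genotype entered a linear model with 1 mean per group in limma 3.58.1 (R 4.3.3), with 12 residual and 3.58 prior degrees of freedom, and p-values (two-sided) were adjusted over all 19473 genes by the Benjamini-Hochberg method. Features that share a locus (525 over 208 loci) were kept apart. Peak times came from 24 h cosines fitted by least squares (Python 3.11.15, numpy 2.4.6, pandas 2.3.3), and figures from matplotlib 3.10.9. The contrasts were tested on simulated data. Symbols came from RefSeq for the 29715 features whose locus matched (TAIR10.1, so no coordinates are given).

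The genes, lists and tests were chosen with earlier results of these data known. Genes were named as the 15 largest rises and falls called with no overlap of the arrays, the 5 smallest p in each direction, those called against Col at CT16, called members of the clock lists, 2 to 4 members of each other list with the smallest p, and *RVE8*, *TOC1*, *CCA1*, *FT*, *PIF7*, *IAA29*, *GATA21* and 4 loci near *RVE8* or with altered levels. The remaining called genes, list members at the ends of a range, and the B-box and antenna families were named after their values were seen. Alternatives covered the filter, scaling, variance prior, arrays in the fit, threshold, day as a block and single arrays left out. When an array was left out, its partner was taken to vary as the remaining groups did.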

Additional observations from a re-analysis of the deposited data

Results flagged for a closer look

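The genotype difference at CT20 differed from the mean of the differences at the other 5 times of day, by a contrast in the limma fit at an adjusted p under 0.05, for 50 genes in the higher and 82 in the lower direction. All values here are the CT20 difference (*rve8-1* minus Col) minus that mean, in log2 units. Of the 72 genes named by rule, 44 passed, 26 lower and 18 higher, against 132 of all 19473 genes (0.678%). Most of the 72 were picked by their difference or p at CT20, which enters this test. Their number passing is thus no independent evidence.

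Among clock genes the values were -3.10 for *LNK3*, -2.87 for *LNK4*, -2.54 for *LNK2*, -1.77 for *LNK1*, -2.05 for *CCA1*, -1.30 for *RVE1* and -1.58 for *RVE8*. They were 1.57 for *PRR3*, 1.13 for *TOC1* and 1.22 for *FKF1*. Mean *RVE8* stayed between 3.19 and 4.64 in *rve8-1*, near the floor, and ran from 4.33 to 7.36 in Col. Its value is thus bounded by the course of Col. Genes of light signaling and flowering gave -2.05 for *BBX28*, -2.42 for *COL2*, -2.14 for *BBX16*, -1.83 for *PIF5*, -1.06 for *RUP2*, -1.04 for *CDF3* and -1.34 for *CDF1*, and *BBX8* gave 1.22.

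Antenna and chlorophyll genes gave -0.75 for *LHCA1*, -0.81 for *LHCB3*, -0.64 for *LHCB4.2*, -1.15 for *LHCB2.1*, -1.32 for *CAO* and -1.18 for *GUN5*. Further negative values were those of *BCH2* (-2.29), *CIPK20* (-2.21), At1g66100 (-2.06), At4g27360 (-2.02), At1g13650 (-1.71) and *SCPL10* (-1.32).

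The positive values were led by At1g07050 (3.66), *DJC76* (2.57), *JMJD5* (2.23) and *CCL* (1.74). At1g24938 gave 1.19, At1g17665 also 1.19 and At1g21680 1.06. Starch genes gave 1.41 for *PHS2*, 0.86 for *AMY3*, 1.07 for *ISA3* and 1.17 for *DPE1*. The cold-response genes *COR27* and At4g33980 gave 2.05 and 1.66, and *GRP7* gave 0.76. *CDF1*, *GUN5*, *LHCB2.1*, *AMY3*, *ISA3*, *DPE1*, *COR27*, At4g33980 and *GRP7* passed this test without a call at CT20 itself.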

How the results depend on the processing

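No difference of a described gene that was called, under the chosen settings or the alternative, changed sign. With an array left out, this was fixed in advance for the CT20 differences of the 69 called genes, whose arrays do not overlap. Among differences called under neither, the sign changed under at least 1 alternative for 5 of 117 genes at CT20, 28 of 72 against Col at CT16 and 4 of 72 against the other times of day, with a size of at most 0.36 (log2) under the chosen settings. At CT20, the 17 genes higher became 8 with no expression filter, 29 after quantile normalization, 31 with a trended and robust prior, 0 with only the 2 groups in the fit (which leaves few degrees of freedom), 1 at an adjusted p under 0.01, and 1 to 7 with an array left out. The 52 lower became 2 with only the 2 groups in the fit, 20 at an adjusted p under 0.01 and 10 to 55 with an array left out. Against Col at CT16, the 0 higher became 1 after quantile normalization and 2 with the replicate block, and the 3 lower became 1 when the filter had to be met in each genotype and 1 with only the 2 groups in the fit. With an array left out they numbered 0 to 3 and 3 to 28. Against the other 5 times of day, the 50 higher became 24 with no filter, 13 at an adjusted p under 0.01 and 5 to 30 with an array left out, and the 82 lower became 54, 32 and 22 to 87. The cause was not tested.

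No steady pairing of the arrays by day was seen, though a day effect on single genes is not excluded. Deviations of the CT20 arrays from their group means correlated at -0.187 between the genotypes, over genes. Over 66 pairs of groups the median was 0.0581 and the range -0.340 to 0.535, with 25 over 0.1 and 19 under -0.1. With day as a replicate block, 14 genes were higher and 60 lower at CT20, 61 of the 69 calls were shared, 4 genes were lower against Col at CT16, and 58 and 87 passed against the other times of day. Levels near the floor bound how large a difference can appear. Such levels were met in falls such as *RVE8*, *MRD1*, *CIPK20* and *BBX28* and in rises such as *FKF1* and At1g24938. Motifs in the promoters of the called genes were planned and not run, since no promoter sequence was used here.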
